A study of Rattus norvegicus with 5 samples.

Results

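The regions described here were the 100 kb windows of the rat genome with the least binding of histone H4 acetylated at lysine 5 (H4K5Ac) relative to input DNA in the dorsal striatum. Chromosomes 1 to 20 were divided into 25592 consecutive windows, of which 24584 held 200 or more input tags and were kept. A tag is an aligned sequencing read. For each window the tags of the 4 ChIP-Seq libraries per 1000000 ChIP tags were divided by the input tags per 1000000 input tags. The 5 percent of windows with the lowest ratio formed the set, which came to 1229 windows, or 122.9 Mb of 2458 Mb. These windows are called members below. The ratio selected them, so their low ratios are a description and were not tested.

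All animals were male Sprague-Dawley rats. Rats of the SS group had been pretreated with saline and then challenged with saline, and rats of the SM group had been pretreated with saline and then challenged with 5 mg/kg METH (methamphetamine). Rats of the MS group were given repeated METH injections and then a saline challenge, and rats of the MM group were given the same METH pretreatment and then 5 mg/kg METH. Striatal tissue was taken 2 h after the challenge, and an antibody against H4 acetyl-lysine 5 was used for all 4 groups. Each group was 1 library made from pooled samples, 4 for SS, 3 for SM, 3 for MS and 4 for MM. The input library was DNA without precipitation from 4 pooled samples labelled untreated, and it served as the reference for all groups. Since no group had a second library, groups were compared without p-values, and the 95% intervals given below (exact conditional binomial for ratios, Clopper-Pearson for shares) cover counting error only. Differences between treatments, between pooled animals and between precipitations cannot be told apart. The libraries held 8473714 (SS), 12358680 (SM), 5728788 (MS), 9107139 (MM) and 17471499 (input) tags on chromosomes 1 to 20.

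Histone H4 is acetylated on the lysines of its amino-terminal tail by histone acetyltransferases and deacetylated by histone deacetylases. Acetylation of lysine 5 is known as a mark of active chromatin that is dense around the start sites of transcribed genes, and bromodomain proteins can bind it. Long stretches with little acetylation are known from gene deserts, from repeat-rich DNA and from clusters of genes that a tissue does not express. The striatum is made mostly of medium spiny neurons, which are the main targets of midbrain dopamine, and METH raises dopamine there. The genes in the members were not analysed, because the gene tables used here are on another genome assembly than the files, and the striatal label could not be checked against marker genes for the same reason.

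The ratio of the members ran from 0.458 to 0.688, with a median of 0.663. The median over all kept windows was 0.910. Their summed ratio was 0.656 (95% interval 0.654 to 0.658), against 1.01 in all other windows and 1.54 in the 5 percent of windows with the highest ratio. The members held 2.47% of all ChIP tags and 3.76% of all input tags. As a set the windows were therefore poor in ChIP tags but were not empty of them. There was no library of a control precipitation, so background tags could not be told apart from tags of H4K5Ac binding.

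The threshold did not fall in a gap. The 3 members just inside it had ratios of 0.688064 (chr3:79100001-79200000), 0.688078 (chr2:253600001-253700000) and 0.68808 (chr2:229600001-229700000). The 3 windows just outside had 0.688098 (chr2:249400001-249500000), 0.688098 (chr4:86500001-86600000) and 0.688187 (chr14:88600001-88700000). The interval of a single member spanned about 11.5% of its ratio on each side (median). The upper bound of all 1229 members lay below the median of all windows, but that of 1141 members reached the threshold and that of only 88 stayed below it. These intervals use the tags that selected the members and cover counting error only. The position below the median of all windows thus follows in large part from the rule. Membership of a single window near the threshold was thus not resolved at this depth.

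The 5 members with the lowest ratio lay on chromosomes 1, 2 and 6. The lowest was chr1:215500001-215600000, with a ratio of 0.458 (0.436 to 0.482). It held 768 SS, 1067 SM, 212 MS and 964 MM tags against 3220 input tags, the most input tags of any kept window. The mean kept window held 344 SS, 501 SM, 232 MS and 369 MM tags. In SS, SM and MM this lowest member was thus not poor in ChIP tags, and its ratio was low relative to its input. Its MS ratio of 0.201 stood apart from those of SS (0.492), SM (0.468) and MM (0.574).

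The next lowest, chr2:154300001-154400000, had a ratio of 0.465 (0.406 to 0.532) from 97 SS, 174 SM, 80 MS and 77 MM tags and 451 input tags. Here MM had the lowest ratio of the 4 libraries (0.328) and SM the highest (0.545). In chr6:139200001-139300000 the ratio was 0.485 (0.420 to 0.559), from 119 SS, 149 SM, 62 MS, 57 MM and 391 input tags. MM was again lowest, at 0.280, and SS was highest, at 0.628. In both windows MM therefore lay below SM, although both groups had the METH challenge.

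The ratio was 0.508 (0.424 to 0.609) in chr2:117800001-117900000, which held 54 SS, 84 SM, 48 MS, 64 MM and 241 input tags. It was 0.515 (0.449 to 0.592) in chr1:73800001-73900000, which held 118 SS, 138 SM, 63 MS, 106 MM and 404 input tags. In the latter SM, MS and MM lay close together, at 0.483, 0.476 and 0.503, with SS above them at 0.602. All 5 windows had at least 1 adjacent member.

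Tags that had not been used in the selection were counted next. Each window was split into its even and odd 1 kb bins, the lowest 5 percent were selected on the even bins, and the odd bins were measured. The 1229 windows selected in this way had a median ratio of 0.644 in the even bins and 0.712 in the odd bins, where the median of all windows was 0.913. The ratio lay below the median of all windows in 98.9% of them. In the odd bins 29.4% of them were again among the lowest 5 percent, against 5.00% of all windows. Of these windows 61.8% were members.

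When 3 libraries were used for the selection on even bins and the remaining library was measured on odd bins, the windows were also low in that library. The median ratio was 0.772 for SS, 0.707 for SM, 0.688 for MS and 0.714 for MM, against medians of 0.939, 0.910, 0.917 and 0.920 over all windows. The share that fell in the lowest 5 percent of the left-out library was 17.7% for SS, 22.4% for SM, 22.1% for MS and 22.8% for MM, where the share over all windows was 5.00%, 5.00%, 5.00% and 5.01%. Compared with all windows, the low ratio was thus present in each library by itself, while the exact rank of a window was not stable. The 4 libraries shared 1 input library as divisor. Windows with few input tags had lower ratios in general, as given below, and the windows selected here were not compared with windows of similar input.

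**Figure D1:**
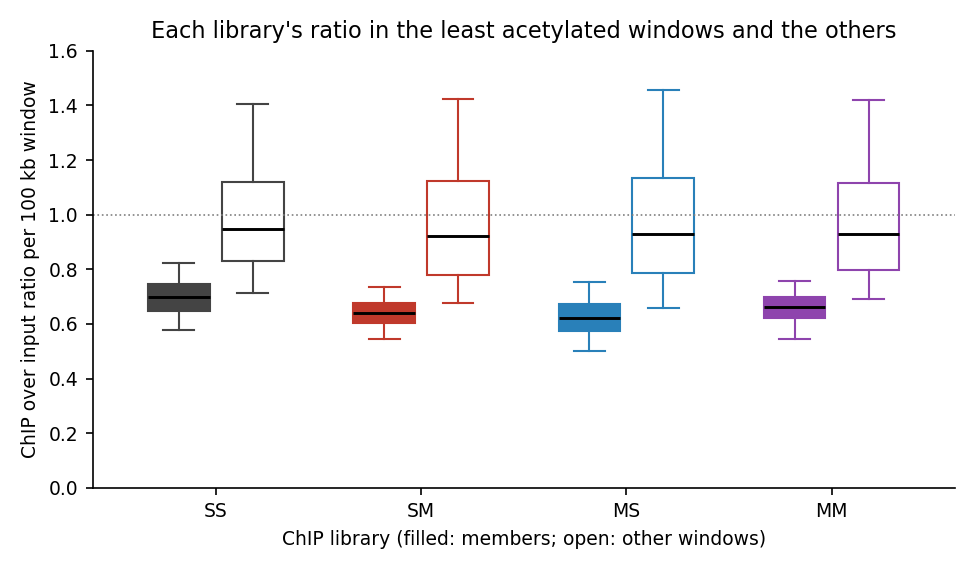
The ChIP over input ratio per 100 kb window (vertical axis) is drawn for each of the 4 ChIP libraries, with filled boxes for the 1229 members and open boxes for the other windows; lines in the boxes are medians, boxes span the quartiles and whiskers the 5th to 95th percentiles. The median in members is highest in SS (0.700) and lowest in MS (0.623), and the boxes of members and of other windows do not overlap in any library.

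Within the members, the SS library had the highest rate of tags and the MS library the lowest. For every 1000000 tags of a library, a member window held on average 21.3 for the SS library, 19.7 for SM, 19.1 for MS and 20.2 for MM, and 30.6 for input. The other windows held 41.04 to 41.7 in the 5 libraries. The summed ratio to input in members was 0.695 (0.691 to 0.698) for SS and 0.625 (0.621 to 0.628) for MS. The other two libraries lay between them, with 0.643 (0.640 to 0.645) for SM and 0.659 (0.656 to 0.662) for MM. SS was the highest of the 4 libraries in 622 members (50.6%), beside 34.5% of all windows, and MS was the lowest in 528 (43.0%), beside 27.0%. The ratio of SS reached 1 in 3 members, and that of SM, MS and MM reached it in 0 members.

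Few members were extreme in every library. Taken by itself, a library placed 565 (SS), 706 (SM), 638 (MS) or 645 (MM) of the members in its own lowest 5 percent. The shares were 46.0%, 57.4%, 51.9% and 52.5% of members, against 2.84%, 2.24%, 2.53% and 2.50% of the other windows. All 4 libraries did so for 75 members, 3 libraries for 291, 2 for 539 and 1 for 303. The other 21 members were low in the pool without being in the lowest 5 percent of any library. Of the 23355 other windows the numbers were 0 for all 4 libraries, 5 for 3, 246 for 2 and 1856 for 1. These tags also selected the members, and SM, with the most tags, weighed most in the pool.

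The study set the METH groups against the SS control. Here SM, MS and MM were compared with SS in members, and MM was also compared with MS, on tags scaled to the same library total. SM, MS and MM share the SS library as their control, and MM against MS shares the MS library. In members the SM over SS ratio was 0.925 (0.920 to 0.930), the MS over SS ratio was 0.899 (0.893 to 0.905) and the MM over SS ratio was 0.949 (0.943 to 0.954). The MM over MS ratio was 1.05 (1.048 to 1.062). In the other windows the 4 ratios were all 1.00. In the windows with the highest 5 percent of ratios they were 1.03, 1.05, 1.03 and 0.976. With this scaling, the METH groups thus held a smaller share of their tags in members than SS.

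The direction of SM over SS and of MM over SS was not a fixed property of the members. The kept windows were divided into 5 equal classes by input tags, from class 1 with the fewest to class 5 with the most. In members of class 1, SM over SS was 0.896 and MM over SS was 0.921, and the other windows of that class had 0.886 and 0.912. In class 2 they were 0.889 and 0.922 in members, and 0.903 and 0.938 in the other windows. In class 3 they were 0.964 and 0.991 in members, and 0.964 and 0.981 in the other windows. In class 4 both were above 1 and above the other windows, with 1.06 and 1.04 in members and 1.02 and 1.02 in the others. In class 5, which held 14 members, they were 1.07 and 1.02 in members, and 1.09 and 1.06 in the other windows. Members were thus not on 1 side of the other windows across the classes. When the lowest 5 percent were instead taken within each of 20 classes of input tags, SM over SS became 1.03 and MM over SS 1.02. Both also passed to the other side of 1, at 1.02 each, when libraries were scaled by the tags they held in 10 kb windows whose ChIP tags were under the median. That scaling raises every window by a factor of 1.10 for SM over SS, 1.09 for MS over SS and 1.07 for MM over SS, so the order of members and other windows stays as it was. With each 1 kb bin capped at 5 tags per ChIP library and 10 in input, SM over SS was 1.05.

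MS over SS was lower in members than in the other windows of the same input class in all 5 classes, with 0.876 against 0.913 in class 1 and 0.922 against 1.06 in class 5, and MM over MS was higher in members in all 5, at 1.05 to 1.10 against 1.00. The tags compared had also served to select the members. Windows were therefore selected on even bins without either compared library and measured on odd bins, a comparison by class that was added after the data had been seen. MS over SS was then 0.891 (0.883 to 0.900) in the selected windows. By class it was 0.872, 0.892, 0.921 and 0.969 in classes 1 to 4, against 0.916, 0.940, 0.982 and 1.02 in the other windows, and 0.797 against 1.06 in class 5, which held only 5 selected windows. MM over MS was 1.04 (1.03 to 1.05) in the selected windows. By class it was 1.03, 1.03, 1.06 and 1.05 in classes 1 to 4 and 1.15 in class 5, which held 15 selected windows, against 1.00 in the other windows of each class. SM over SS was 0.912 and MM over SS 0.926 over all windows selected in this way. When MS alone was left out of the selection, MS over SS was 0.941 and MM over MS was 1.01, against 0.926 for SM over SS and 0.949 for MM over SS. MS was also the library with the fewest tags, and the part of its depth in these values was not tested.

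Single members were counted as changed where 2 libraries differed by 1.2-fold or more. In SM against SS, 319 members (26.0%) were lower, beside 14.1% of all windows, and 62 (5.04%) were higher, beside 5.84%. In MS against SS, 411 (33.4%) were lower, beside 12.5%, and 50 (4.07%) were higher, beside 4.42%. In MM against SS, 252 (20.5%) were lower, beside 9.92%, and 63 (5.13%) were higher, beside 4.08%. These counts use tags that also selected the members and are a description. At a fold of 1.3 the members lower were 145 (11.8%, beside 5.18% of all windows) in SM against SS, 229 (18.6%, beside 5.57%) in MS against SS and 125 (10.2%, beside 3.65%) in MM against SS. The members higher were 35 (2.85%, beside 1.51%), 12 (0.976%, beside 0.757%) and 24 (1.95%, beside 0.862%).

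All windows are not a like background, since 945 of the members lay in input classes 1 and 2. Within those classes 31.2% of members and 30.01% of the other windows were lower by 1.2-fold in SM against SS. In MM against SS the shares were 24.8% and 20.9%, and in MS against SS 38.9% and 24.0%. With windows chosen on even bins without either compared library and counted on odd bins, the shares lower in these classes were 35.0% and 34.0% for SM against SS, 32.2% and 26.9% for MM against SS, and 39.3% and 29.4% for MS against SS. In the shares lower, members and other windows of similar input thus lay close for SM against SS and furthest apart for MS against SS. The shares higher by 1.2-fold did not follow this order. They were 4.76% and 2.00% for SM against SS, 4.97% and 2.64% for MM against SS, and 4.02% and 3.21% for MS against SS. Chosen without either library and counted on odd bins, they were 5.79% and 4.40%, 7.65% and 6.53%, and 5.32% and 7.84%. With 1 library per group these differences were not tested. The comparison within classes was chosen after seeing the data.

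The split depended on the scaling. With libraries scaled by 10 kb windows with few tags, which shifts all windows alike, 122 members (9.93%, beside 4.12% of all windows) were lower and 172 (14.0%, beside 21.0%) higher by 1.2-fold in SM against SS. In MS against SS 225 (18.3%, beside 5.43%) were lower and 118 (9.60%, beside 16.7%) higher. In MM against SS 139 (11.3%, beside 4.23%) were lower and 153 (12.4%, beside 12.9%) higher.

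In MM against MS, 219 members (17.8%) were higher, beside 7.01% of all windows, and 76 (6.18%) were lower, beside 4.97%. In input classes 1 and 2, 18.1% of members and 10.1% of the other windows were higher, and 23.5% and 17.1% when chosen without either library and counted on odd bins. In the same classes 7.09% of members and 8.48% of the other windows were lower, and 14.5% and 15.3% when chosen and counted in that way. At a fold of 1.3 there were 93 members higher (7.57%, beside 2.16%) and 28 lower (2.28%, beside 1.22%), and with the other scaling 186 (15.1%, beside 5.63%) higher and 91 (7.40%, beside 6.31%) lower. Without any fold, members were lower than in the control library in 883 cases (71.8%, beside 56.6%) for SM against SS, 927 (75.4%, beside 54.4%) for MS against SS and 794 (64.6%, beside 54.2%) for MM against SS. For MM against MS the number was 451 (36.7%, beside 49.0%). Members hold fewer tags than other windows, and the part of counting error in these counts was not tested.

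Members often lay next to each other. The 1229 members formed 907 runs of adjacent windows, of which 706 were single windows. The other 201 runs had a length of 2 or more and held 523 members (42.6%). There were 135 runs of 2 windows, 40 of 3, 11 of 4, 9 of 5, 3 of 6, 1 of 8 and 2 of 9. The next window along the chromosome was also a member for 27.6% of members whose next window was kept (322 of 1165). Members made up 5.00% of all kept windows. For the 5 percent of windows with the highest ratio, 29.7% were followed by another such window, the longest run was 6 windows, and 49.5% were in runs of 2 or more. A smaller share of windows was thus in runs at the low end than at the high end, and the longest runs were at the low end. The next window was kept for 1165 of the members and for 1207 of the highest windows, so left-out windows cut the runs of members more often. With windows under the input minimum skipped, 45.2% of members were in runs of 2 or more. That share is not given here for the highest windows. The longest run depended on where windows began and on their size, with 1800 kb for windows that start at 50 kb, 350 kb for windows of 50 kb and 1400 kb when windows under the input minimum were skipped or MM was left out of the selection.

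**Figure D2:**
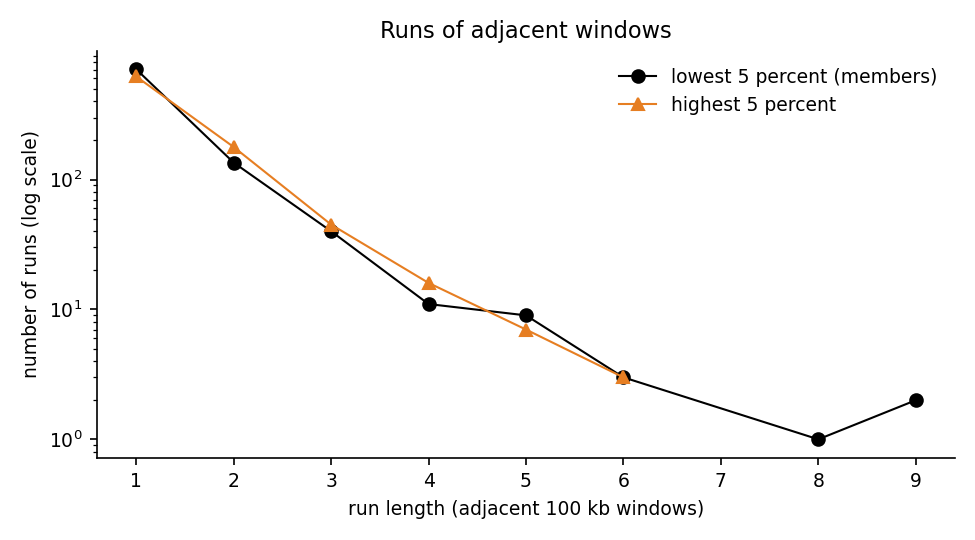
The number of runs (log scale) is plotted against their length in adjacent 100 kb windows, for members (circles) and the highest 5 percent of windows (triangles), 1229 windows each. Runs of the highest windows end at 6 windows and those of members at 9.

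The 2 longest runs lay close together on chromosome 6 and had 9 windows each. The run chr6:139700001-140600000 had a ratio of 0.633 (0.608 to 0.658), from 1682 SS, 1920 SM, 812 MS, 1397 MM and 4499 input tags. SS stood above the other libraries there, with a ratio of 0.771 against 0.603 in SM, 0.550 in MS and 0.596 in MM. In chr6:140900001-141800000 the ratio was 0.640 (0.618 to 0.664), from 1796 SS, 2233 SM, 986 MS, 1812 MM and 5222 input tags. The ratio of SS was again the highest, at 0.709, followed by MM with 0.666, SM with 0.605 and MS with 0.576.

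The 3 windows between these runs had ratios of 0.750, 0.589 and 0.692, and the middle one was a member. With 1 other window allowed inside a run, the 2 runs became a single stretch of 2100 kb, in which 19 of 21 windows were members and the ratio was 0.642 (0.626 to 0.657). Another stretch of the same chromosome, chr6:142000001-142900000, followed it with 8 members in 9 windows. The 1 Mb blocks that begin at 140000001, 141000001 and 142000001 held 8 members each, the most of any block in the genome.

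The third run was chr1:165300001-166100000, with 8 windows and a ratio of 0.638 (0.612 to 0.665). It held 1347 SS, 1739 SM, 832 MS, 1297 MM and 4002 input tags. The ratio was 0.694 for SS, and it was 0.614, 0.634 and 0.622 for SM, MS and MM, so the 3 METH libraries differed little from each other there. Among the 2451 blocks of 1 Mb with 8 or more kept windows, 33 held 5 or more members and 193 members in all, while 1825 (74.5%) held none.

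The other 2 named runs, chr7:4000001-4600000 and chr7:5300001-5900000, had 6 windows each and differed from the rest in their libraries. The first held 429 SS, 914 SM, 241 MS, 272 MM and 1448 input tags, for ratios of 0.611, 0.892, 0.508 and 0.360 in SS, SM, MS and MM. The second held 534 SS, 1133 SM, 278 MS, 372 MM and 1775 input tags, for ratios of 0.620, 0.902, 0.478 and 0.402. SM over SS was 1.46 (1.301 to 1.64) in the first and 1.45 (1.31 to 1.62) in the second, against 0.925 over all members. MM over SS was 0.590 (0.505 to 0.688) and 0.648 (0.566 to 0.741).

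These runs were part of a longer stretch in which SM stood above the other libraries. Windows were listed, after their values had been seen, where the highest of the 4 library ratios was at least 2 times the lowest. This held for 24 members (1.95%), beside 0.155% of all windows. All windows are not a like background here, since members hold fewer tags. In input classes 1 and 2 the median of the highest over the lowest library ratio was 1.28 in members and 1.23 in other windows. The share past 2 times is not given here by class, and the part of counting error was not tested. Of the 24 members, 12 lay on chromosome 7. Between the first and the last of these 12, in chr7:4000001-6200000, 18 windows were kept and 15 were members. SM was the highest library in all 18 windows, and MM was the lowest in 15 and MS in 3. The summed ratio was 0.922 for SM (3110 tags), 0.649 for SS (1501 tags), 0.510 for MS (798 tags) and 0.398 for MM (989 tags), against 4771 input tags. By window, SM ran from 0.785 to 1.18 and MM from 0.289 to 0.528, so that these libraries did not overlap.

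On both sides of the stretch SM did not stand above the other libraries. In the 10 kept windows before it SM had a ratio of 0.716 and MM of 0.709, with SS at 0.847 and MS at 0.641. In the 10 kept windows after it SM had 0.672 and MM 0.698, with SS at 0.826 and MS at 0.668. SM over SS was 1.42 (1.34 to 1.51) in the stretch, 0.845 (0.787 to 0.908) before it and 0.813 (0.762 to 0.868) after it. The stretch was thin in input, and 4 of its windows were under the minimum. All groups were set against the same input library, so a difference in the DNA of the pooled animals and one in H4K5Ac binding cannot be told apart. Without the members of this stretch, SM over SS in members was 0.922 and MM over MS was 1.06.

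**Figure D3:**
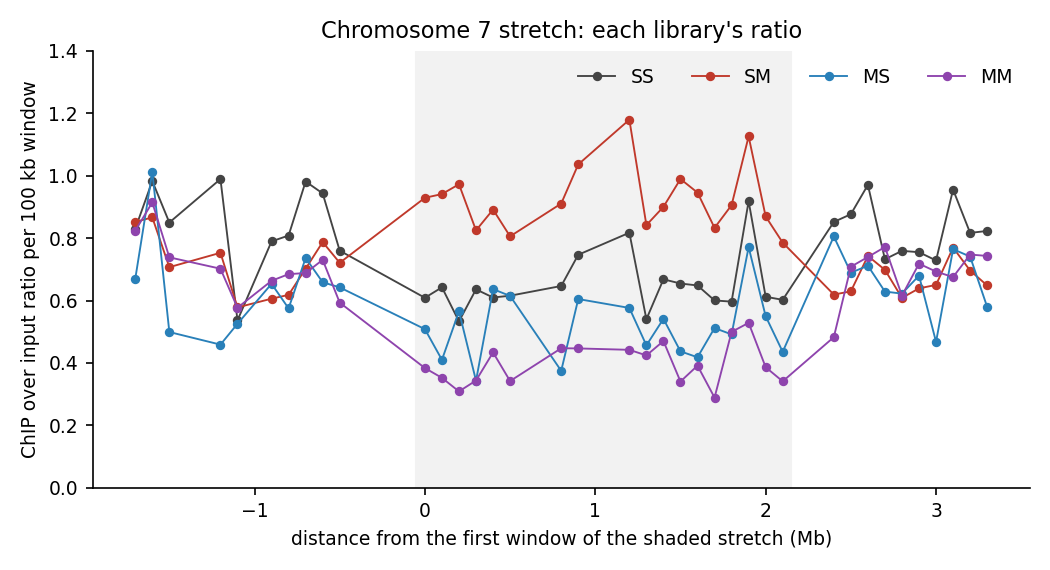
The ChIP over input ratio per 100 kb window is plotted for SS, SM, MS and MM against the distance from the first window of the stretch (Mb), with the stretch shaded and the 10 kept windows before and after it unshaded. SM lies above the other libraries in all 18 shaded windows, while in the 10 windows after them SS is the highest in 9.

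The remaining 12 members with such a difference fell in smaller groups. In chr6:139200001-139900000, which reaches into the first of the chromosome 6 runs, 4 of the 5 kept windows were members with such a difference. SS was highest in all 5 there. Summed over these 5 windows, of which only 4 were members, the ratio was 1.09 in SS (1103 tags). It was 0.604 in SM (890 tags), 0.571 in MS (390 tags) and 0.460 in MM (500 tags). The SS sum does not describe each member, since SS had 0.628 in the member chr6:139200001-139300000. Over the whole set SS reached 1 in only 3 members. In chr3:138000001-138200000 SM was the highest and MM the lowest library in both windows, with summed ratios of SM at 0.850, SS at 0.722, MS at 0.454 and MM at 0.378. In chr4:101400001-101500000 SS held 153 tags and SM 41, for ratios of 0.965 (0.791 to 1.17) and 0.177 (0.125 to 0.246), the widest difference between SS and SM among these groups. Which library was highest therefore differed from place to place.

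The windows around members were low as well. At a distance of 1 window the median ratio was 0.734, at 5 windows 0.783, at 10 windows 0.821 and at 20 windows 0.867, still under the median of 0.910 over all windows. The share of windows that were themselves members fell from 25.01% at 1 window to 11.1% at 10 and 10.2% at 20. With members selected on even bins and neighbours measured on odd bins, the median ratios at 1, 10 and 20 windows were 0.744, 0.837 and 0.872. The median ratio around a member was thus below that of all windows out to at least 20 windows. Neighbours were not matched for input, and all windows of input classes 1 and 2 had median ratios of 0.789 and 0.808.

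**Figure D4:**
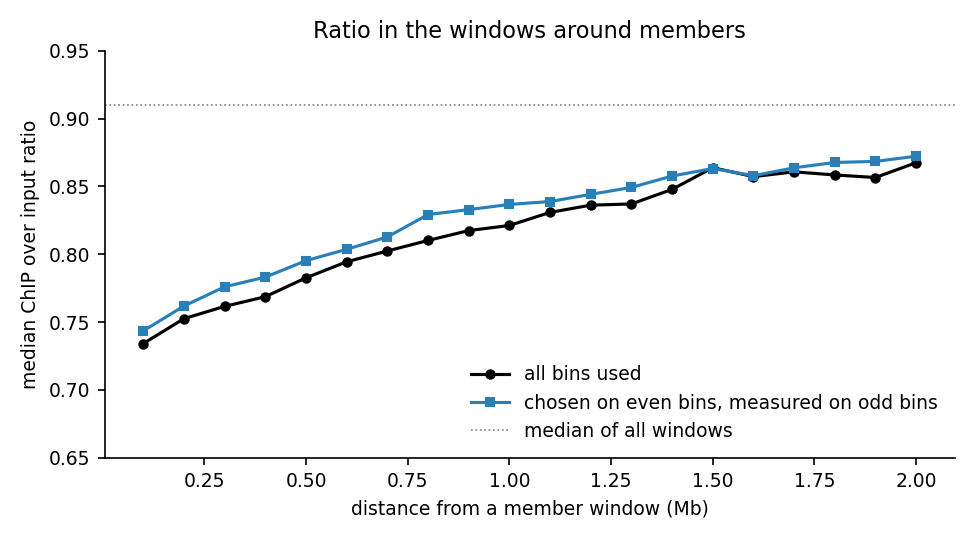
The median ChIP over input ratio is plotted against the distance from a member window (Mb), with all bins used (circles) and with members chosen on even and neighbours measured on odd 1 kb bins (squares); the dotted line is the median of all windows, and the vertical axis does not start at 0. Both lines rise with distance, from 0.734 and 0.744 at 1 window to 0.867 and 0.872 at 20 windows.

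Members were also thin in input, which is the divisor of the ratio and so part of the rule. A member held a median of 531 input tags and another window 712. The mean per window was 0.746 times (0.744 to 0.748) that of the other windows, and 1091 members (88.8%) lay below the median of the others. Of the members, 520 lay in input class 1 (10.6% of that class), 425 in class 2 (8.64%), 191 in class 3 (3.88%), 79 in class 4 (1.61%) and 14 in class 5 (0.285%). The median ratio of all windows rose over the same classes from 0.789 through 0.808, 0.908 and 1.01 to 1.13. In the members the median ratio was 0.661 to 0.668 in every class, which follows in large part from the single threshold of 0.688. When the lowest 5 percent were taken within each of 20 input classes, members and other windows held the same mean of input tags (1.00 times), as that rule fixes. Input tags also depend on how much of a window can be aligned, its base composition and how it fragments, and these were not analysed here.

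Members were spread over all 20 chromosomes at unequal shares. Chromosome 1 had the highest share, 192 of 2518 windows (7.63%, 6.62 to 8.73), followed by chromosome 7 with 89 of 1390 (6.40%, 5.17 to 7.82) and chromosome 16 with 51 of 861 (5.92%, 4.44 to 7.71). The lowest shares were on chromosome 18 with 27 of 846 (3.19%, 2.11 to 4.61), chromosome 9 with 36 of 1105 (3.26%, 2.29 to 4.48) and chromosome 15 with 35 of 1023 (3.42%, 2.39 to 4.73). The intervals of chromosome 1 and of these 3 chromosomes did not overlap, while those of chromosomes 1, 7 and 16 did. Adjacent windows are not independent, so the true uncertainty is wider. The longest run was 9 windows on chromosome 6, 8 on chromosome 1 and 6 on chromosome 7, and it was 2 to 3 windows on chromosomes 18, 9 and 15.

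**Figure D5:**
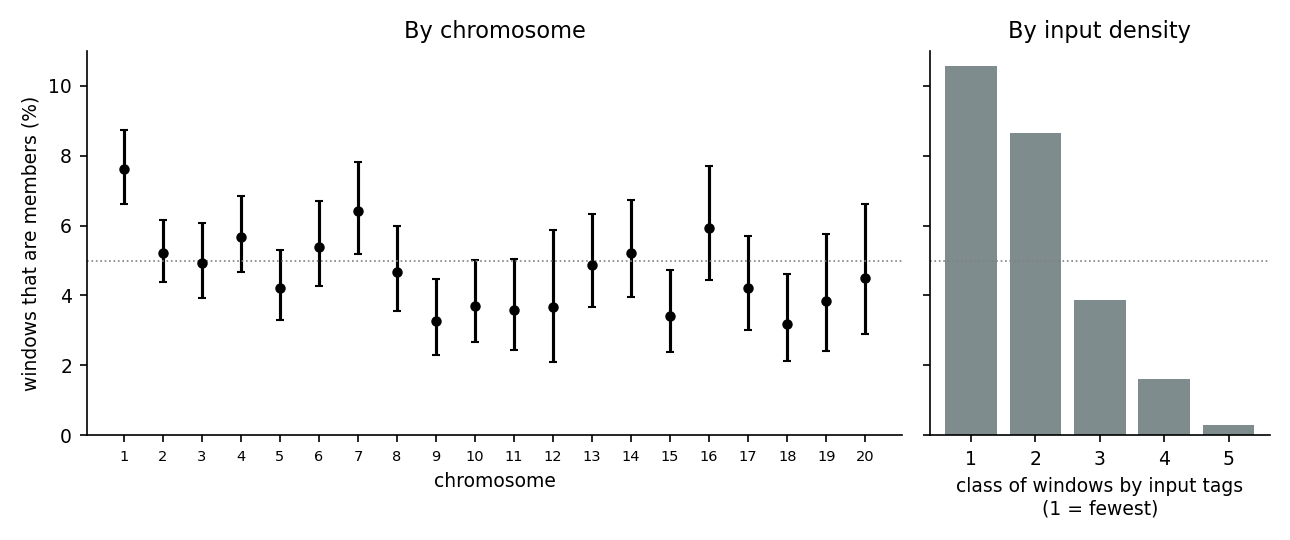
The share of kept windows that are members (%) is plotted for chromosomes 1 to 20 (left; points with exact binomial 95% intervals, counting only) and for 5 equal classes of windows by input tags, class 1 having the fewest (right; bars); the dotted line is the 5% selected over all windows. Chromosome 1 lies highest, at 7.63%, and the share falls from 10.6% in class 1 to 0.285% in class 5.

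The share of members near chromosome ends was close to that of the other windows. Of the members 8.87% (7.34 to 10.6) were within 5 Mb of an end, against 7.72% (7.38 to 8.07) of the other windows, and the latter share lay inside the interval of the former. Members lay more often beside a window that had been left out for having under 200 input tags, at 10.2% (8.54 to 12.0) against 3.83% (3.59 to 4.09).

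The tags inside the windows were counted in bins of 1 kb. The rule selects windows with few ChIP tags, so the counts of ChIP tags per bin are a description that follows in part from it. Of the 100 bins of 1 kb in a member, a median of 12 had no ChIP tag from any library, against 5 in other windows. The bin with the most ChIP tags held a median of 22 in members and 41 in other windows, and 71.1% of members had any bin of 20 or more tags, against 96.7%. Input tags showed a like difference, with a median of 13 empty bins in members and 7 in other windows. The highest input bin held a median of 16 and 19 tags, and 20.2% and 43.1% of windows had an input bin of 20 or more. Since members were thin in tags, the same was counted in input classes 1 and 2. There the median of empty bins was 15 in members and 13 in other windows, the highest bin held 21 against 26 tags, and a bin of 20 or more was present in 63.5% against 91.4%. For input in these classes the median of empty bins was 17 in members and 15 in other windows. The highest input bin held 16 tags in both, and an input bin of 20 or more was present in 15.8% against 13.3%. The variance of ChIP tags over their mean was 3.62 against 4.19 there, while that of input tags was 2.86 against 2.68. The ChIP tags of members and other windows were not matched in number, so these values do not separate fewer tags from tags that are more evenly spread.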

How the data were processed

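The 4 H4K5Ac ChIP-Seq libraries and 1 input library were analysed. Reads had been aligned by the authors with Gerald, and the build is rn4 per the submitters' processing notes. The deposited values are counts of tags in 1 kb windows at steps of 100 bp, neither normalized nor corrected for input. For repeated tags no handling is stated in the sources used here.

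Every 10th step gave non-overlapping 1 kb bins, which were summed to 100 kb windows. Ratios have exact conditional binomial and shares Clopper-Pearson 95% intervals. The selection, the joining of windows into runs and the intervals were tested on simulated data. The planted windows had a ratio below the median of the members, with counting noise only. Held-out bins, input classes, scaling and fold counts were not simulated. Python 3.11.15, NumPy 2.4.6, SciPy 1.17.1, pandas 2.3.3 and matplotlib 3.10.9 were used. The members and comparisons were chosen with earlier results of these data known. Named regions are the 5 longest runs (ties by lower ratio), the 5 lowest members, 3 windows on each side of the threshold, and the 3 chromosomes of highest and of lowest share. Windows where libraries stood apart were listed after their values were seen. Alternatives covered the input minimum, window size and start, weights, percentage, held-out bins, capped bins, scaling and libraries left out. Gene and sequence tables on GRCr8 were not used, since the builds differ.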

Additional observations from a re-analysis of the deposited data

Results flagged for a closer look

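With libraries scaled by all their tags, the METH challenge groups lay on opposite sides of their saline-challenged groups in members after the 2 pretreatments. After saline pretreatment SM over SS was 0.925 (0.920 to 0.930), and after METH pretreatment MM over MS was 1.05 (1.048 to 1.062). The second ratio was 1.14 times the first. With 1 library per group this difference was not tested. The opposite directions were also present with windows chosen on even bins without either compared library and measured on odd bins, where SM over SS was 0.912 (0.905 to 0.919) and MM over MS was 1.04 (1.03 to 1.05). The 2 ratios were then measured in different sets of windows. Those for SM over SS were chosen on MS and MM, and those for MM over MS on SS and SM. In input classes 1 to 5, SM over SS was then 0.885, 0.892, 0.947, 1.04 and 1.06 in the chosen windows. The other windows of these classes had 0.887, 0.904, 0.964, 1.02 and 1.09. MM over MS was 1.03, 1.03, 1.06, 1.05 and 1.15, against 1.00 in the others of each class. A low SM over SS was thus also found in the other windows with few input tags. Both ratios were above 1 with capped bins (1.05 for SM over SS and 1.16 for MM over MS). SM over SS was above 1, at 1.03, when windows were selected within classes of input tags. Scaling by 10 kb windows with few tags gave 1.02 and 1.04, but this scaling multiplies SM over SS by 1.10 in every window, so it moves members and other windows alike. With SM alone left out of the selection SM over SS was 1.004 (0.998 to 1.009), and with MS alone left out MM over MS was 1.01 (1.002 to 1.015). In both cases the library it was compared with stayed in the selection, which by itself raises the first ratio and lowers the second.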

How the results depend on the processing

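MS over SS in members stayed below 1 and MM over MS above 1 under all alternatives run, with ranges of 0.838 to 0.977 and 1.01 to 1.16, and members held 0.630 to 0.772 of their input share in ChIP tags. SM over SS and MM over SS did not keep their side of 1. Of 209 recomputed values, 101 stayed within the interval of the reported value or within 1.5 times a reported count, 101 moved further and 7 passed to the other side of 1. The intervals of 2 of the 7 include 1, those of SM over SS with SM left out of the selection and of the input ratio within 20 input classes. Depth limits the rank of single windows more than the sums over members, and the causes of the changes were not tested unless the alternative itself makes them.

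With a minimum of 100 input tags the summed ratio was 0.654 and the input ratio, members over others, 0.717. With 400 tags the threshold was 0.692, the median ratio 0.669, the summed ratio 0.661, the share of members in runs of 2 or more 39.3% and the input ratio 0.783. Windows of 50 kb gave 2424 members, a threshold of 0.667, a median of 0.639, a summed ratio of 0.630, 1932 runs, a longest run of 350 kb, 34.5% in runs and an input ratio of 0.767. Windows starting at 50 kb gave a longest run of 1800 kb and MM over SS of 0.941. Equal weights of the libraries gave an input ratio of 0.755, SM over SS of 0.943, MS over SS of 0.884, MM over SS of 0.955 and MM over MS of 1.08. Selection within 20 input classes gave a highest member ratio of 0.855, a median of 0.668, a summed ratio of 0.694, an input ratio of 1.00 (which that rule fixes), SM over SS of 1.03, MS over SS of 0.963 and MM over SS of 1.02. The lowest 10 percent had 2458 members, a threshold of 0.717, a median of 0.688, a summed ratio of 0.680, 1573 runs, a longest run of 1600 kb, 55.7% in runs, an input ratio of 0.758, MS over SS of 0.911, MM over MS of 1.05 and 13.1% of the windows of chromosome 1.

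Selection on even and measurement on odd bins gave a threshold of 0.672, a median of 0.712, a summed ratio of 0.711, 35.0% in runs, an input ratio of 0.721, SM over SS of 0.919, MM over MS of 1.05, and median ratios of 0.744 and 0.837 at 1 and 10 windows from a member. Without either compared library the ratios were 0.912 (SM over SS), 0.891 (MS over SS), 0.926 (MM over SS) and 1.04 (MM over MS). With capped bins, where deeper libraries lose more tags, the threshold was 0.804, the median 0.779, the summed ratio 0.772, the input ratio 0.788, SM over SS 1.05, MS over SS 0.842, MM over SS 0.979 and MM over MS 1.16. Scaling by 10 kb windows with few tags gave 1.02 (SM over SS), 0.977 (MS over SS), 1.02 (MM over SS) and 1.04 (MM over MS), with 172 higher and 122 lower members for SM against SS, 118 and 225 for MS against SS, and 153 and 139 for MM against SS, beside 21.0% and 4.12%, 16.7% and 5.43%, and 12.9% and 4.23% of all windows. At a fold of 1.3 the counts higher and lower were 35 and 145 for SM against SS, 12 and 229 for MS against SS, 24 and 125 for MM against SS, and 93 and 28 for MM against MS, beside 1.51% and 5.18%, 0.757% and 5.57%, 0.862% and 3.65%, and 2.16% and 1.22% of all windows. With 1 other window allowed the longest run was 2100 kb and 53.4% of members were in runs, and with windows under the minimum skipped the longest was 1400 kb.

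Leaving each ChIP library out of the selection in turn gave thresholds of 0.670 to 0.692, medians of 0.664 to 0.666, summed ratios of 0.659 to 0.665, 39.7% to 44.7% in runs, longest runs of 800 to 1400 kb and input ratios of 0.711 to 0.787. SM over SS ranged from 0.856 to 1.004, MS over SS from 0.838 to 0.941, MM over SS from 0.881 to 0.998 and MM over MS from 1.01 to 1.10. The SM over SS value of 1.004 (0.998 to 1.009) came with SM left out of the selection and SS kept in it. No paired analysis was possible because each group was 1 library.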

Other observations

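Chromosome X was not among the chromosomes the members were taken from. Of its 1288 windows with 200 or more input tags, 92 (7.14%) had a pooled ratio at or below the highest ratio of the members. By the rule, this holds for 5 percent of the windows the members were taken from. Its median ratio was 0.864 and its windows held a median of 269 input tags. That number lies within input class 1 (200 to 506 tags), where 10.6% of windows were members and the median ratio was 0.789. The share on chromosome X was thus not above that of class 1, and a closer match for input was not made. By library, 64 (SS), 109 (SM), 87 (MS) and 125 (MM) windows lay at or below the same value. This value does not mark the same share in each library. In the windows that were not members, outside chromosome X, the 5th percentile was 0.715 (SS), 0.676 (SM), 0.659 (MS) and 0.692 (MM). The counts therefore do not compare the libraries on chromosome X alone, and differences between them were not tested.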
